A study of Mus musculus with 8 samples.

Results

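The tricarboxylic acid (TCA) cycle and the reactions that feed it from pyruvate and glutamine were followed here as 34 named genes in mouse leukaemia cells with and without Pik3ca. Members were found by symbol from a list of the pathway's enzymes, with no threshold on their values. Of the 34, 32 had a row in the deposited table, 1 row each, among 19505 genes with 1 symbol, and Mpc2 and Glud1 were not analysed here. A further filter kept rows brighter than the median row of the array on at least 3 arrays, and 28 of the 32 passed it. The 4 below it were Pdk4, Dlst, Sucla2 and Me1.

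The study compared Pik3ca-/- leukaemia cells (KO, 3 arrays) with wild-type ones (WT, 5 arrays). Both groups were GFP+ cells with the surface phenotype of granulocyte-macrophage progenitors (GMPs), taken from the marrow of transplanted mice. Both also carried MLL-AF9, a fusion oncogene that gives myeloid progenitors unlimited self-renewal, and the labels call the cells leukaemia stem cells (LSCs). Pik3ca encodes p110-alpha, a catalytic subunit of phosphoinositide 3-kinase, which relays growth factor signals. The labels do not give the age of the mice, the way Pik3ca was deleted, the clone, or whether each array had its own mouse. The p-values therefore reflect only how far these samples vary, which may be technical. All levels below are deposited log2 values, all differences are KO minus WT on that scale, and the number of arrays limits their precision.

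In the TCA cycle, citrate synthase joins acetyl-CoA to oxaloacetate, and the following oxidations yield reduced cofactors for respiration. Pyruvate enters through the mitochondrial pyruvate carrier and the pyruvate dehydrogenase complex, which pyruvate dehydrogenase kinases (PDKs) switch off by phosphorylation and the matching phosphatases switch back on. Pyruvate carboxylase, glutamate dehydrogenase and the aminotransferases refill the cycle, and leukaemia cells are known to use both glucose and glutamine as fuels for it.

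No TCA cycle gene passed the test. By limma, 0 of the 28 tested members had an adjusted p under 0.05, beside 0 of all 9920 genes tested (0%), and the same counts held without WT array 3. The smallest adjusted p of a member was 0.998 in the fit of all arrays and 0.989 in the other. At an unadjusted p under 0.05 there was 1 member with all arrays, Pdk2, where 2.84% of all genes were past it. Without WT array 3 there was also 1, Got1, where 4.68% of all genes were past it. Both are close to the background shares.

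The differences of the members were of both signs, with a median size of 0.24 against 0.21 for all genes. With all arrays 16 of 28 lay above 0, or 57.1%, against 55.98% of all genes, and the median difference was 0.14 against 0.04 for all genes. Without WT array 3, 17 of 28 lay above 0, or 60.7% against 50.1% of all genes, with a median of 0.06 against 0.00018. The median was -0.05 without KO array 2, so 1 array decided its sign. A difference over 1 in size, that is 2-fold on the log2 scale, was found for 4 members, Pdk1, Pdk2, Aco1 and Got1, or 14.3% against 2.28% of all genes. Without WT array 3 it remained for Pdk1 and Aco1, or 7.14% against 1.46%.

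WT array 3 stood apart from the other arrays, and it did so in this pathway too. Its mean correlation with the other arrays was 0.921 across all genes tested, against 0.968 to 0.972 for the rest. On it, 10 of the 28 members lay more than 1 below the average of WT arrays 1, 2, 4 and 5 (35.7%, against 22.5% of all genes) and 1, Pdk2, lay as far above (3.57% against 9.77%). The gap was -3.75 for Dlat, -3.88 for Idh3a and -3.54 for Got1, and only 0.02 for Ogdh and -0.02 for Pdhb. For most genes below, the difference without it is therefore given beside that of all arrays. Pik3ca itself was 8.73, 9.31 and 9.40 in the KO arrays, against 9.48, 9.57, 8.41, 9.51 and 9.58 in WT arrays 1 to 5, so the groups overlap, with a difference of -0.16 and an exact permutation p of 0.661. When WT array 3 was left out, all KO arrays were below the other 4 WT arrays, with a difference of -0.39 and an exact permutation p of 0.0286, the lowest possible, and a limma adjusted p of 0.989. Which exons were removed is not stated in the sources used here, so it is not known whether the probes lie in the deleted stretch. The 7 GMP and primary granule markers were brighter than the median row on every array, with a mean log2 value of 14.8 to 15.2 in KO and 15.02 to 15.5 in WT. The 6 maturing neutrophil markers were also brighter than the median row on every array, and averaged 15.7 to 16.4 in KO and 16.03 to 16.3 in WT. So were the 6 monocyte and macrophage markers, at 9.14 to 9.87 in KO and 9.64 to 10.6 in WT. How pure the sorted cells were was not tested. Of 3 B cell and 2 erythroid markers in the table, 0 passed the brightness filter, and of 3 T and NK cell markers 1 did. The 6 mast cell, basophil and eosinophil markers averaged 6.86 to 6.94 in KO and 7.23 to 7.69 in WT, without overlap, as in no other marker list. Of the 5 of them tested, 0 passed by limma, and Epx lay below the brightness filter. The 5 megakaryocyte and platelet markers averaged 5.93 to 6.37 in KO and 5.75 to 10.3 in WT, with WT array 1 highest. The part of these cell types in the differences below was not tested. In such bulk samples fewer cells of a type and less RNA per cell cannot be told apart.

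**Figure D1:**
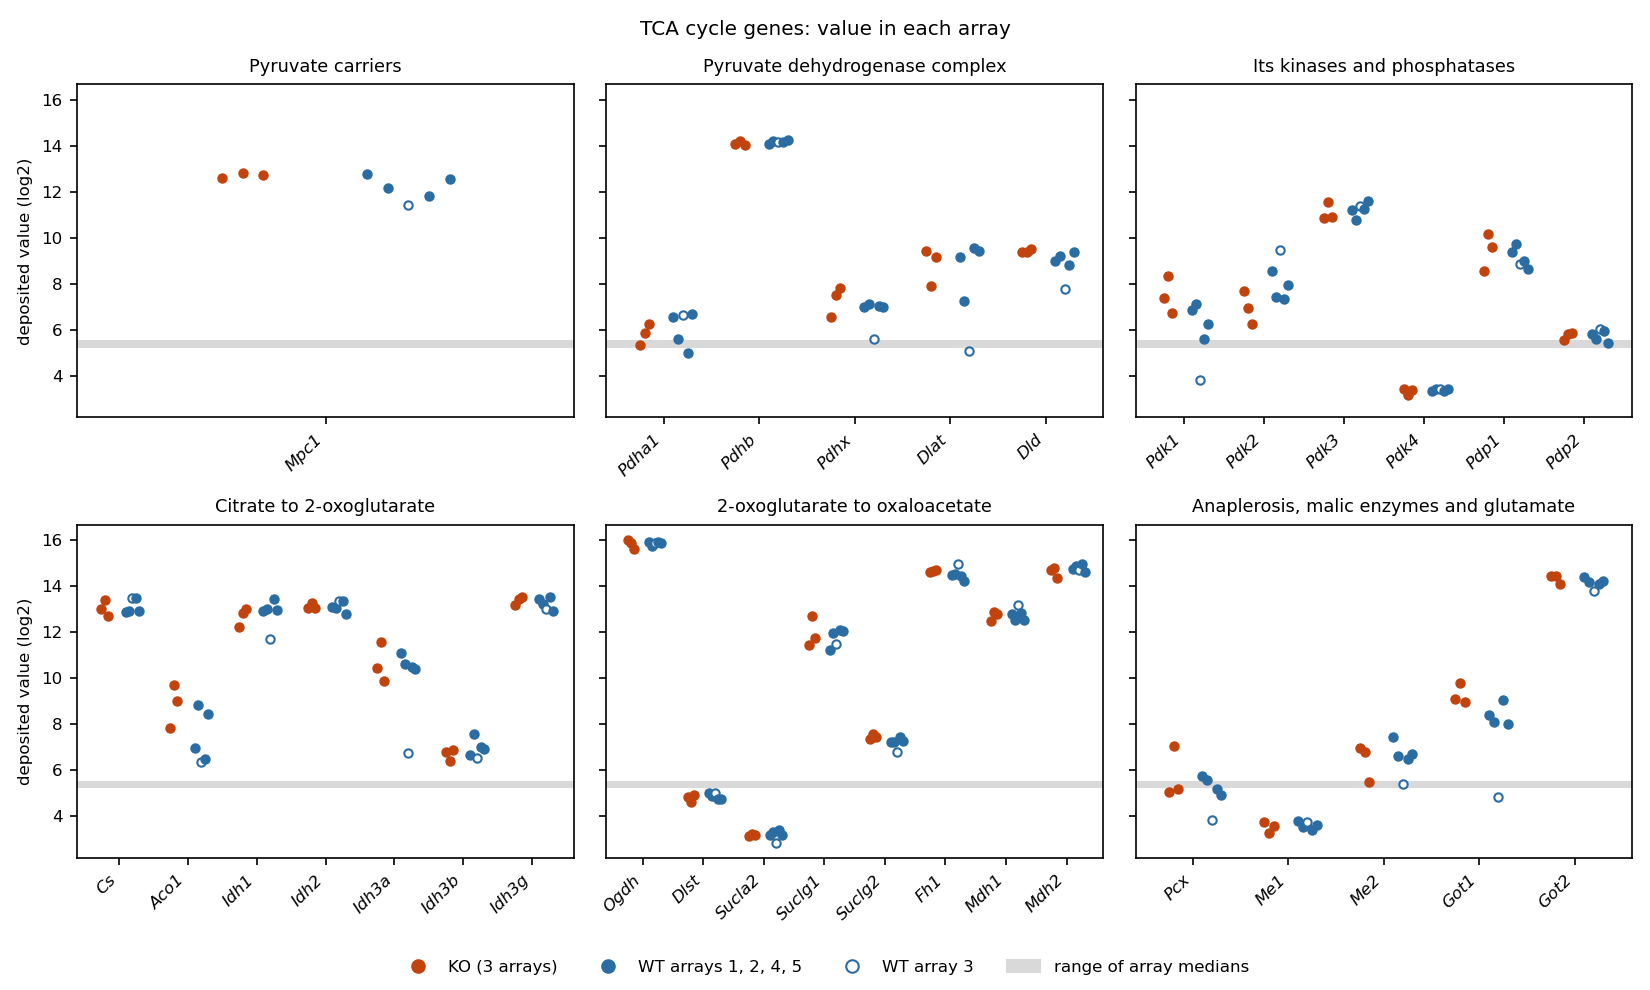
Deposited log2 value of each of the 32 genes in each array, by role, with KO arrays in orange at the left of each gene and WT arrays in blue at the right. The open circle is WT array 3, and the grey band spans the array medians, 5.26 to 5.51. Pdk4, Dlst, Sucla2 and Me1 lie below the band in all arrays, and WT array 3 lies far under the other WT arrays for Dlat, Idh3a and Got1.

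No gene of pyruvate uptake or of the pyruvate dehydrogenase complex passed the test. Mpc1, 1 of the subunits of the mitochondrial pyruvate carrier, was 12.60, 12.83 and 12.75 in KO, against 12.78, 12.17, 11.43, 11.81 and 12.56 in WT arrays 1 to 5. The KO arrays were tight and at the upper end of the WT range, which WT array 1 shared. The difference was 0.57 with a standard error of 0.32, and 0.39 with a standard error of 0.25 without WT array 3. The exact two-sided permutation p was 0.143 and 0.229, where the lowest possible values are 0.0179 over 56 splits and 0.0286 over 35.

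Of the 5 genes of the complex, 0 passed, 3 had a difference above 0 with all arrays and 2 without WT array 3. Pdhb, the beta chain of the E1 component that decarboxylates pyruvate, was 14.09, 14.21 and 14.06 in KO, against 14.08, 14.19, 14.15, 14.15 and 14.27 in WT. The groups lay on top of each other, and the difference of -0.05 had a 95% interval of -0.44 to 0.34, so a 2-fold change lay outside it, and it was -0.06 without WT array 3. Dld, the E3 component that reoxidises lipoamide and also serves the 2-oxoglutarate dehydrogenase complex, was 9.39, 9.40 and 9.50 in KO, against 8.99999, 9.23, 7.80, 8.84 and 9.39 in WT. WT array 5 reached the lowest KO array, and the other 4 WT arrays were lower. The Dld difference was 0.58, and 0.32 when WT array 3 was left out, where its 95% interval was -0.10 to 0.73 and the exact permutation p 0.0857. Pdhx, which anchors E3 to the complex, was 6.55, 7.52 and 7.83 in KO, against 6.98, 7.13, 5.63, 7.04 and 7.02 in WT. KO array 1 was below 4 of the WT arrays and the other two KO arrays were above all of them. The Pdhx difference was 0.54, and 0.26 without WT array 3. Dlat, the E2 acetyltransferase, differed by 0.72 with all arrays and by -0.03 without WT array 3, so its sign rested on that array. Pdha1, the alpha chain of E1, was dim, at 5.36 to 6.27 in KO and 5.003 to 6.71 in WT, and differed by -0.29 and -0.15.

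The regulators of the complex spanned the widest range of differences of the role groups with all arrays, from -1.19 for Pdk2 to 1.54 for Pdk1, and 0 of the 5 tested passed. Pdk1, a target of the hypoxia-inducible factor HIF-1 that limits pyruvate oxidation, was 7.38, 8.34 and 6.75 in KO, against 6.88, 7.14, 3.85, 5.62 and 6.26 in WT. KO arrays 1 and 2 were above all WT arrays, and KO array 3 lay among them. The difference was 1.54 with a standard error of 0.72, or 2.91-fold, and 1.02 with a standard error of 0.46 without WT array 3. The exact permutation p was 0.125 and 0.143. Pdk2, a widely expressed kinase of the same family, was 7.69, 6.96 and 6.26 in KO, against 8.56, 7.43, 9.46, 7.35 and 7.98 in WT. KO arrays 2 and 3 were below all WT arrays, and KO array 1 lay among them. The difference was -1.19 with a standard error of 0.52, and -0.86 with a standard error of 0.40 without WT array 3. The limma p before adjustment was 0.0486 and 0.0647, and the exact permutation p was 0.125 and 0.171. WT array 3 was the lowest of the 8 arrays for Pdk1 and the highest for Pdk2, so both differences were smaller without it.

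The other regulators of the complex gave no such contrast. Pdk3, the isoform with the gene on the X chromosome, was 10.85, 11.58 and 10.93 in KO, against 11.21, 10.77, 11.40, 11.26 and 11.63 in WT. The KO arrays lay inside the WT range, and the difference was -0.13, with a 95% interval of -0.73 to 0.47. It was -0.10 without WT array 3, and its sign turned without KO array 1, to 0.00064. Pdk4, a kinase induced by fasting and by FoxO factors in other tissues, was at 3.20 to 3.45 in KO and 3.37 to 3.43 in WT, below the median row on every array. Of the phosphatases, Pdp1 differed by 0.31, by 0.25 without WT array 3 and by -0.05 without KO array 2. Pdp2 differed by -0.03, and by 0.04 without WT array 3, and turned above 0 with quantile normalization or median centring.

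The stretches upstream of Pdk1 and Pdk2 are printed because the differences of these kinases had opposite signs, though neither passed the test. Both genes were chosen after their values were seen. Each is the run of 250 bases before the first gene start that RefSeq lists for the gene, in build GRCm38.p6, on the plus strand at chr2:71872974-71873223 for Pdk1 and on the minus strand at chr11:95041372-95041621 for Pdk2. Capitals mark ACGTG or GCGTG on either strand, the core letters of hypoxia response elements. CACGTG, the E-box bound by MYC and related factors, holds ACGTG on both strands.
Pdk1: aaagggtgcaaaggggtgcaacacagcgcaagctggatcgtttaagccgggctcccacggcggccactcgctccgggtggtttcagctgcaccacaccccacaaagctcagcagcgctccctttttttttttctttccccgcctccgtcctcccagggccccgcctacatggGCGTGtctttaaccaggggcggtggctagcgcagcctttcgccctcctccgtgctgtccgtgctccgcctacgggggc
Pdk2: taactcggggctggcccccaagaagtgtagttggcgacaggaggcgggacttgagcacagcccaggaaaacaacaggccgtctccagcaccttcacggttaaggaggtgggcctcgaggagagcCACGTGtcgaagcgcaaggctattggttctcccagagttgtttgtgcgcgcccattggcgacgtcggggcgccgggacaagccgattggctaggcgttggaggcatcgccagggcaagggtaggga
The Pdk1 stretch held 1 GCGTG and no CACGTG, and the Pdk2 stretch held 1 CACGTG. Each gene had 2 listed starts, and only the printed stretch of each held either core. Of 25 tested members with a listed start, 19 had ACGTG or GCGTG upstream of at least 1 start, or 76%, against 41.5% of 27025 genes of all kinds, which were not matched for base composition. CACGTG lay upstream of 4 of the 25, or 16%: Pdk2, Pdp2, Ogdh and Pcx. By single starts, which is another unit than genes, 38.6% of 32851 held either core and 6.02% held CACGTG. A match is only a match of letters.

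**Figure D2:**
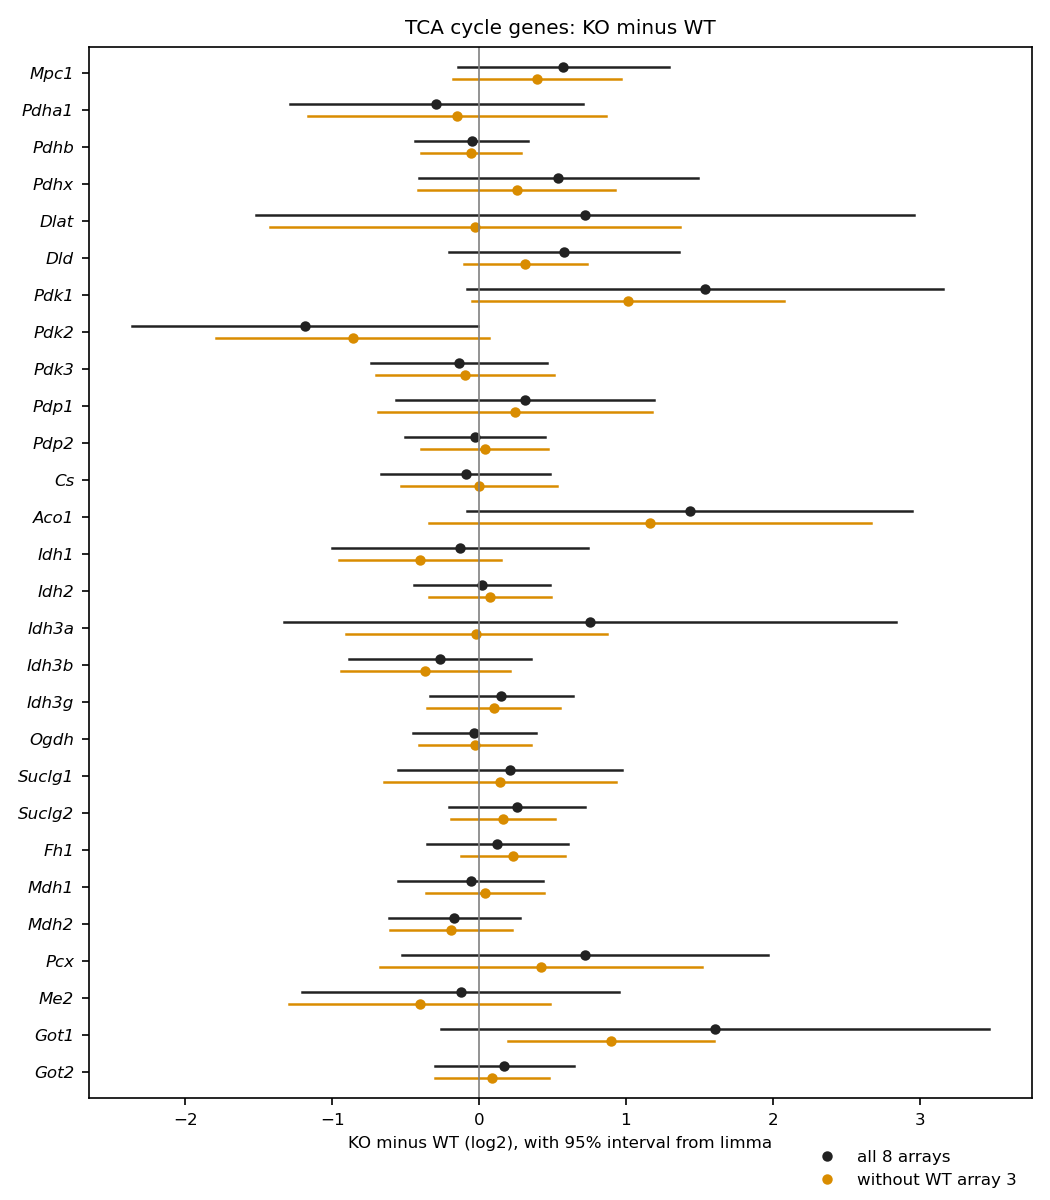
KO minus WT difference of the 28 tested genes on the log2 scale, with 95% intervals from limma, for all 8 arrays in black and without WT array 3 in orange. Of the intervals, 27 of 28 span 0 in each fit, and those of Dlat, Idh3a and Got1 shrink most without that array. With all arrays the interval of Pdk2 ends just below 0, at -0.01, and without WT array 3 that of Got1 starts at 0.20.

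Of the 7 genes that carry citrate to 2-oxoglutarate, 0 passed and 4 had a difference above 0 in each fit, 3 of them the same genes: Aco1, Idh2 and Idh3g. Aco1, the cytosolic aconitase that doubles as iron regulatory protein 1, was 7.84, 9.70 and 9.03 in KO, against 6.97, 8.86, 6.35, 6.50 and 8.44 in WT. Both groups were widely spread, and WT arrays 2 and 5 were above the lowest KO array. The difference was 1.43 with a standard error of 0.67, or 2.70-fold, and 1.17 with a standard error of 0.65 without WT array 3, and the exact permutation p was 0.125 and 0.229. Idh1, the cytosolic NADP-dependent isocitrate dehydrogenase, was 12.23, 12.82 and 13.02 in KO, against 12.94, 13.01, 11.72, 13.46 and 12.97 in WT. Its difference was -0.13, and -0.40 when WT array 3, the lowest of the 8, was left out. The sign of the first turned with another array left out, to 0.10 without KO array 1 and 0.03 without WT array 4. Idh2, the mitochondrial counterpart of Idh1, differed by 0.02, with a 95% interval of -0.44 to 0.48, and by 0.08 without WT array 3. That sign turned without KO array 2, WT array 2 or WT array 5, to -0.054, -0.0032 and -0.059.

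The NAD-dependent isocitrate dehydrogenase, the rate-controlling enzyme of this span, is built from Idh3a, Idh3b and Idh3g. Idh3g was 13.19, 13.46 and 13.51 in KO, against 13.43, 13.23, 13.03, 13.53 and 12.94 in WT, and differed by 0.15, and by 0.10 without WT array 3. Idh3b was 6.82, 6.39 and 6.87 in KO, against 6.67, 7.60, 6.56, 7.01 and 6.94 in WT, and differed by -0.27, and by -0.37 without WT array 3. For both subunits all KO arrays lay inside the WT range or within 0.17 of it. The catalytic subunit Idh3a differed by 0.76 with all arrays and by -0.02 without WT array 3, where it was 6.77 against 10.41 to 11.09 in the other WT arrays. Cs, citrate synthase, was 12.73 to 13.40 in KO and 12.88 to 13.50 in WT, a difference of -0.09 that became 0.00038 without WT array 3.

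From 2-oxoglutarate to oxaloacetate, the differences of all 6 tested members lay between -0.17 and 0.26, the narrowest range of the role groups with several tested genes. None passed, and 3 lay above 0 with all arrays and 4 without WT array 3. Succinate dehydrogenase also belongs to this span but is not among the members, so that range leaves it out. In the wider list described below, its subunits Sdha, Sdhb, Sdhc and Sdhd differed by 0.67, -0.08, -0.27 and 0.33. Without WT array 3 they differed by 0.03, -0.10, 0.11 and 0.30. Sdha was 6.15 on that array, against 8.61 to 10.01 in the other WT arrays. Ogdh, the E1 component of the 2-oxoglutarate dehydrogenase complex, was 16.01, 15.88 and 15.60 in KO, against 15.91, 15.74, 15.88, 15.94 and 15.85 in WT. The WT arrays lay within the KO range, and the 95% interval of the difference ran from -0.45 to 0.39, and from -0.41 to 0.35 without WT array 3. Suclg2, a subunit of the GTP-forming succinyl-CoA ligase, was 7.37, 7.57 and 7.45 in KO, against 7.24, 7.24, 6.81, 7.45 and 7.26 in WT. The KO arrays sat at the top of the WT range, and the difference of 0.26 had an exact permutation p of 0.107. It was 0.16 without WT array 3, with p of 0.114.

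Fh1, fumarase, was 14.62, 14.66 and 14.69 in KO, against 14.47, 14.55, 14.97, 14.43 and 14.24 in WT. WT array 3 was the highest of the 8 arrays, and all KO arrays were above the other 4 WT arrays. The difference was 0.13, and 0.23 when that array was left out, with an exact permutation p of 0.482 and 0.0571. Fh1 was the only 1 of 28 members whose groups did not overlap without WT array 3. That is 3.57% of the members with KO above, where 2.62% of all genes were, and with KO below there were 0 members, where 2.93% of all genes were. With all 8 arrays 0 members had groups without overlap, against 3.09% of all genes. Suclg1, the alpha subunit shared by both succinyl-CoA ligases, differed by 0.21, by 0.14 without WT array 3 and by -0.15 without KO array 2. The malate dehydrogenases Mdh1, cytosolic, and Mdh2, mitochondrial, differed by -0.06 and -0.17, and by 0.04 and -0.19 without WT array 3. Dlst, the E2 component of the 2-oxoglutarate dehydrogenase complex, read 4.64 to 4.93 in KO and 4.75 to 5.04 in WT, and Sucla2, of the ATP-forming ligase, 3.17 to 3.23 in KO and 2.87 to 3.39 in WT. Both were below the median row on every array.

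Among the enzymes that refill the cycle or draw from it, Got1 had the largest difference of the pathway with all arrays. Got1, the cytosolic aspartate aminotransferase of the malate-aspartate shuttle, was 9.11, 9.78 and 8.99 in KO, against 8.41, 8.11, 4.85, 9.04 and 8.01 in WT. WT array 4 lay among the KO arrays, and the other 4 WT arrays were below them. The difference was 1.61 with a standard error of 0.83, or 3.05-fold, and 0.90 with a standard error of 0.30 without WT array 3. Its limma p before adjustment was 0.0833 and 0.0179, and the exact permutation p was 0.0893 and 0.0857. Got2, the mitochondrial partner enzyme, was 14.45, 14.42 and 14.09 in KO, against 14.39, 14.19, 13.80, 14.11 and 14.24 in WT. Its groups overlapped, with a difference of 0.17 and, without WT array 3, of 0.09.

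Pcx, pyruvate carboxylase, which makes oxaloacetate from pyruvate, was dim, at 5.08, 7.06 and 5.20 in KO, against 5.74, 5.57, 3.86, 5.19 and 4.93 in WT. Only KO array 2 stood above the WT arrays. The difference of 0.72 was 0.08 without that array and 0.42 without WT array 3. Me2, the mitochondrial malic enzyme that turns malate into pyruvate, differed by -0.12, by -0.40 without WT array 3, by 0.33 without KO array 3 and by 0.10 without WT array 1. Me1, its cytosolic counterpart, was at 3.30 to 3.76 in KO and 3.40 to 3.79 in WT, below the median row on every array.

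The arrays of the KO group also differed from each other in this pathway. KO array 2 was the highest of the 3 KO arrays for 15 of the 28 members, or 53.6%, against 38.0% of all genes, and the lowest for 2, or 7.14% against 28.4%. Measured against the mean of WT arrays 1, 2, 4 and 5, the median member was at -0.09 in KO array 1, 0.23 in KO array 2 and 0.07 in KO array 3. WT arrays 1, 2, 4 and 5, each set against the other three of these, were at 0.07, -0.07, 0.00048 and -0.16, and WT array 3 was at -0.39. The same shift over all genes lay between -0.03 and 0.05 in all arrays but WT array 3, where it was -0.15. The KO arrays thus spanned a wider range than those 4 WT arrays and overlapped them.

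**Figure D3:**
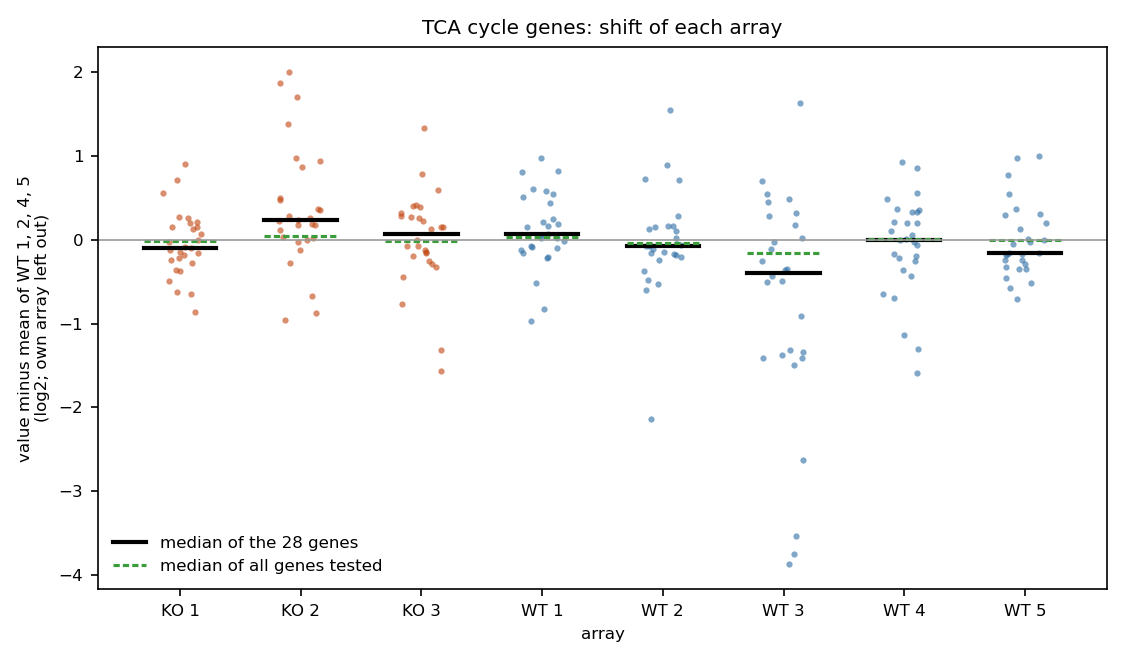
Shift of each of the 28 tested genes in each array, as its log2 value minus the mean of WT arrays 1, 2, 4 and 5 with the array itself left out. Black bars are medians of the 28 genes, and green dashed bars are medians of all 9920 genes. KO array 2 has the highest median, 0.23, and WT array 3 the lowest, -0.39, with single genes down to -3.88.

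How small a change these arrays could bound differed between members. The standard error of a difference ran from 0.17 to 0.99 over the 28 members, with a median of 0.33 against 0.31 for all genes. Without WT array 3 it ran from 0.15 to 0.65, with a median of 0.25 against 0.24. The 95% interval lay wholly between -1 and 1, which leaves a 2-fold change outside it, for 15 of 28 members, or 53.6% against 54.8% of all genes. Without WT array 3 this held for 19 of 28, or 67.9% against 72.2%. Pdhb, Ogdh, Mdh2, Idh2 and Got2 were among the 15, and Dlat, Idh3a, Pdk1, Aco1 and Got1 were not.

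A wider list of 41 enzymes, carriers and regulators next to the cycle had 35 genes in the table and 27 tested. Of these 0 passed, 0 were at an unadjusted p under 0.05 with all arrays and 1, Slc25a13, without WT array 3. The median difference was 0.04 in the first fit and 0.05 in the second, with 16 of 27 above 0 in each, 13 of them the same genes. All KO arrays were above all WT arrays for 3 of the 27, or 11.1% against 1.58% of all genes, and below them for 0, against 1.51%. The list was chosen with earlier results of these data known, so these shares are a description and not a test. Slc25a13, 1 of the pair of mitochondrial aspartate-glutamate carriers of the malate-aspartate shuttle, in which Got1 also works, was 5.81, 6.62 and 6.17 in KO, against 5.75, 5.27, 3.60, 5.38 and 5.77 in WT. The gap between the groups was narrow, and the levels were near the array medians. Its difference was 1.04, and 0.65 without WT array 3, with an exact permutation p of 0.0893 and 0.0286. Slc25a12, the other such carrier, was 11.73 to 12.35 in KO and 10.75 to 12.62 in WT, and differed by 0.14, and by -0.13 without WT array 3. It falls outside the naming rule and is given because it belongs to the same step.

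None of the other carriers and enzymes named by the rule passed either. Slc25a1, the citrate exporter of mitochondria, was 13.14, 13.56 and 13.15 in KO, against 13.02, 12.83, 12.96, 13.05 and 12.96 in WT. The KO arrays lay just above the WT arrays, and the difference was 0.32 both with and without WT array 3. The exact permutation p was 0.0179, the lowest value possible over 56 splits, while the limma p before adjustment was 0.127. Lipt2, an octanoyltransferase at the start of the synthesis of the lipoyl cofactor of E2 components, was 7.07, 7.54 and 7.11 in KO, against 7.05, 7.01, 6.74, 7.01 and 6.69 in WT, a difference of 0.34, and of 0.30 without WT array 3. Its groups did not overlap either, by 0.01. Slc25a22, a mitochondrial glutamate carrier, differed by 0.77, and by 0.40 without WT array 3. Ldhb, a lactate dehydrogenase subunit, differed by 0.51, and by 0.76 without WT array 3. The permutation p-values of members and of these genes are not adjusted for their number.

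**Figure D4:**
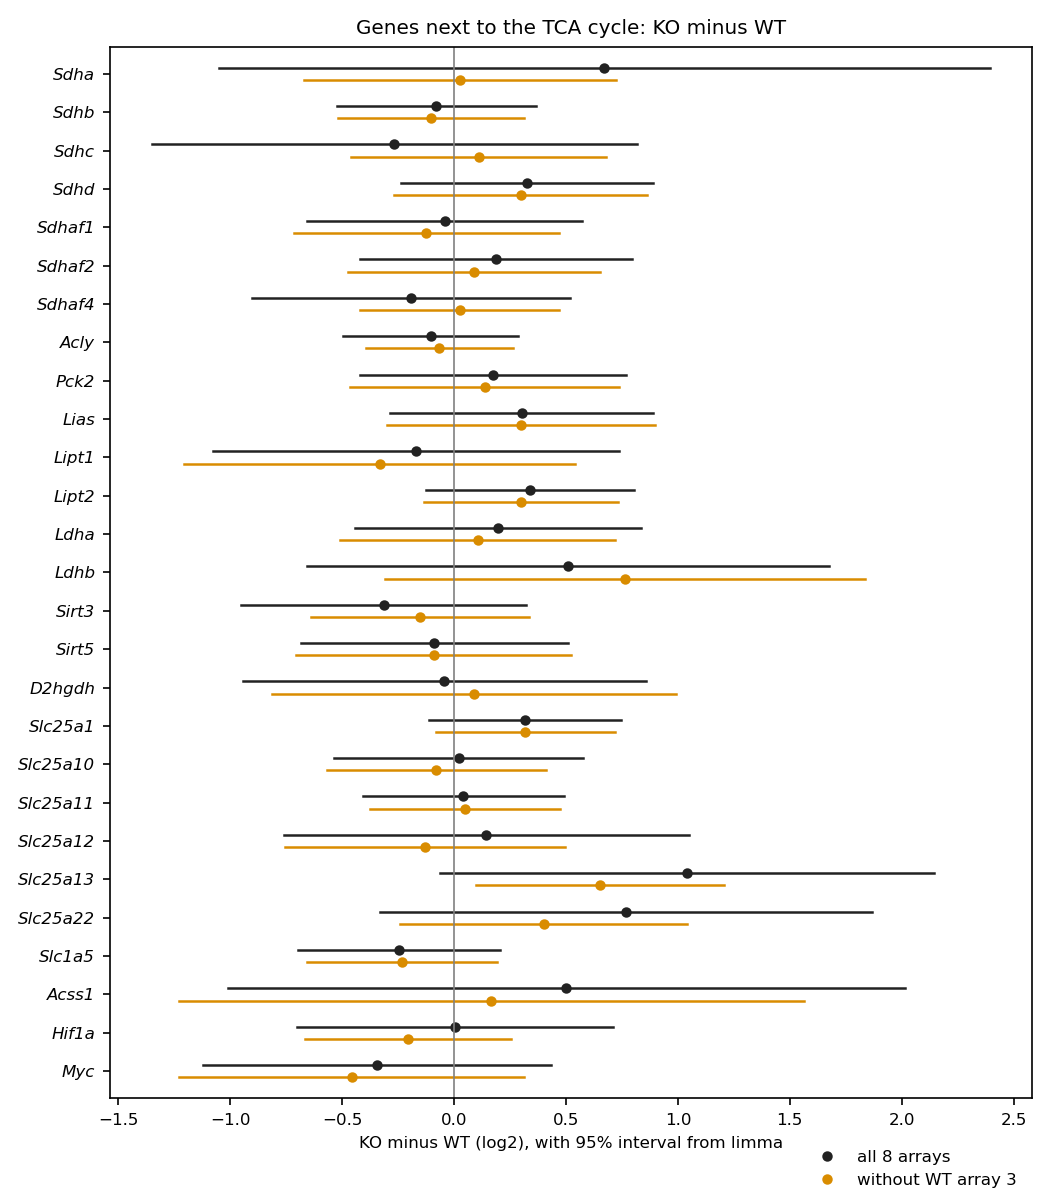
KO minus WT difference of the 27 tested genes next to the cycle on the log2 scale, with 95% intervals from limma, for all 8 arrays in black and without WT array 3 in orange. With all arrays every interval spans 0, and without WT array 3 that of Slc25a13 lies above 0.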

How the data were processed

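The deposited log2 values fill 28846 rows for 8 arrays. Per the labels' protocols, RNA from sorted cells was extracted with a small-sample kit, biotin-labelled and hybridised by a standard Affymetrix protocol. How the authors corrected and normalized them, with which software and genome build, is not given in the sources used here. No label names the log base, which was read from the range of the values, 1.89 to 18.6, so folds rest on that reading. Symbols came from the platform annotation, with 1 symbol for 19572 rows. Each symbol was represented by its brightest row on average. Genes brighter than the array's median row on at least 3 arrays were tested, 9920 in all, so genes dim in both groups were not. KO was compared with WT by limma 3.58.1 in R 4.3.3 (lmFit, eBayes, two-sided, Benjamini-Hochberg over all genes tested, threshold 0.05), and single genes also by exact permutation over arrays. The script was tested on simulated data. Members and lists were chosen with earlier results of these data known. Values in every array are given for the 10 members with the smallest unadjusted p in each fit and the brightest of each role, and the 4 genes of the wider list with the smallest p in each fit are named. Upstream stretches came from RefSeq tables of GRCm38.p6. Alternatives were 2 other filters, array weights, quantile normalization, robust eBayes with a trend, median centring of arrays, a floor at each array's 25th percentile, another row per symbol, the replicate number as a block, and leaving out each array. Figures used Python 3.11.15 with matplotlib 3.10.9.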

Additional observations from a re-analysis of the deposited data

Results flagged for a closer look

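In the 5 WT arrays, 29 values, the levels of the 28 tested members and their median shift, were examined for a single outlying array. The measure was its distance to the closest other array as a share of the range. The search found 3, where the nominal rate is about 1 in 20 for independent values. These values share the same arrays and are not independent. The search covered only these 29 values, so no share over all genes stands beside the 3. All were low in WT array 3, which lay more than 1 below the average of the other WT arrays for 22.5% of all genes. Pdhx was 5.63 there, against 6.98 to 7.13 in the other WT arrays. Idh3a was 6.77, against 10.41 to 11.09. Got1 was 4.85, against 8.01 to 9.04. The differences of these genes without that array stand beside their values above.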

How the results depend on the processing

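Over the 9 settings that kept all arrays and the 8 that left out 1, limma called 0 of all genes, 0 members and 0 genes of the wider list, and the smallest adjusted p of a member was 0.936, with the replicate number as a block. At an unadjusted p under 0.05 there were 217 to 592 genes and 0 to 4 members. With the replicate block the 4 were Pdk1, Pdk2, Aco1 and Got1, at 1.53, -1.52, 1.47 and 2.17. The sample titles number the replicates but do not say whether the numbers pair the samples. Deviations of KO and WT arrays of the same number correlated at 0.02, -0.02 and 0.14. KO arrays 1 and 2 correlated best with WT arrays of other numbers, and KO array 3 with WT array 3, which stood apart. These few weak correlations cannot decide whether the samples were paired. The block moved no count of calls.

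The median member difference lay between 0.01 (no filter) and 0.18 (median centring) with all arrays, and between -0.052 and 0.17 with 1 array left out. The lowest of these was without KO array 2. The number of members above 0 was 15 to 19 with all arrays and 13 to 20 with 1 left out. These medians and counts are over 28 members, except with 2 settings. With no filter they are over 32 members, and the stricter filter left out 3 of the 28. Of the 28 members, 15 kept their direction in every setting in which they were tested, among them Pdk1, Pdk2, Aco1, Got1, Mpc1, Dld and Pcx. The stricter filter dropped 3 members, 2 of them, Pcx and Pdha1, among these 15. The sign turned for Pdp2 with quantile normalization (0.027), median centring (0.018) and array weights (0.0016), for Ogdh with median centring (0.014), for Cs (0.0050) and Mdh1 (0.0028) with array weights, and for Idh1 (0.14), Idh2 (-0.011) and Fh1 (-0.0067) with the replicate block. With 1 array left out the range was -0.027 to 1.19 for Dlat, -0.36 to 0.00064 for Pdk3, -0.051 to 0.76 for Pdp1, -0.11 to 0.069 for Pdp2, -0.27 to 0.071 for Cs and -0.40 to 0.10 for Idh1. It was -0.059 to 0.076 for Idh2, -0.018 to 1.13 for Idh3a, -0.12 to 0.083 for Ogdh, -0.15 to 0.47 for Suclg1, -0.12 to 0.055 for Mdh1 and -0.40 to 0.33 for Me2. The cause was not tested. Rows near the array medians, such as Pdha1, Pcx and Slc25a13, limit what can be read from them.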

Other observations

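The opposite differences of Pdk1 and Pdk2 can be set against each other within an array. Only the change of this contrast between arrays has a meaning, since the rows have different probes. On the log2 scale, Pdk1 minus Pdk2 was -0.31, 1.39 and 0.49 in KO arrays 1 to 3, and -1.68, -0.29, -5.61, -1.73 and -1.72 in WT arrays 1 to 5. KO arrays 2 and 3 were above all WT arrays, KO array 1 lay just under WT array 2, and WT array 3 was far below the rest. The contrast was chosen after the values were seen and was not tested.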
